A study of Mus musculus with 12 samples.

Results

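The genes described here are 10 genes of the AP-1 transcription factor family and of the immediate early response: Jun, Junb, Jund, Fos, Fosb, Fosl2, Atf3, Egr1, Ier2 and Ier3. Each was found by its exact symbol in the annotation of the Affymetrix Mouse Gene 1.0 ST array and had 1 probe set, so the set is 10 of 19938 named genes. RNA came from N2A cells, a mouse neuroblastoma line that grows neurites in retinoic acid, on 12 arrays in 4 groups of 3. The groups were KD cells after RA, control cells after RA, proliferating KD cells and proliferating control cells. KD cells carried a stable short hairpin construct against Dali, a long non-coding RNA transcribed next to Pou3f3, and control cells a stable non-targeting (scrambled) construct. The cells of every group had been selected as drug-resistant clones in 200 µg/ml hygromycin B. Proliferating cells grew in medium with 10% fetal bovine serum. The RA groups spent 72 h in differentiation medium with 20 µM all-trans retinoic acid and 2% serum, so that RA, the lower serum and the time in culture cannot be told apart. The study made several clonal knockdown lines and 1 control line. The labels do not say which clones the arrays hold, nor from how many cultures a group's 3 arrays came, so the p-values measure the spread between these arrays only and a difference between clones cannot be told apart from the knockdown. Dali itself had no named probe set, and its depletion was therefore not checked on these arrays.

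AP-1 is a dimer of basic leucine zipper proteins. A Jun protein (Jun, Junb or Jund) pairs with another Jun protein, with a Fos protein (Fos, Fosb or Fosl2) or with a member of the ATF family such as Atf3, and the dimer binds short palindromic DNA elements. Most of these genes are immediate early genes, transcribed within minutes of a growth factor, stress or depolarising stimulus without new protein synthesis. Their transcription follows phosphorylation of factors such as SRF partners, CREB and Jun itself by MAP kinases and other kinases. Egr1 is a zinc finger factor of the same early wave, Ier2 is a small nuclear protein, and Ier3 is a stress-induced regulator of survival and ERK signalling. In neurons and neuroblastoma cells these genes are widely used as a readout of recent stimulation.

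The stretches upstream of 5 start sites are shown because they hold letters that match short elements, marked below. Whether any stimulus acts through these matches was not tested. They are the 120 bases before the start site, from RefSeq (GRCm38.p6), 5′ to 3′ on the gene's strand. Capitals mark TGACG, the core of a cAMP response element, on either strand, and the MEF2 box, an A/T-rich element bound by MEF2 factors.
Jun, chr4:95052223-95052342, minus strand: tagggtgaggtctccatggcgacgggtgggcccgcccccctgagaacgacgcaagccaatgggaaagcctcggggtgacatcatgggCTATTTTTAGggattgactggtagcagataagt
Junb, chr8:84978749-84978868, minus strand: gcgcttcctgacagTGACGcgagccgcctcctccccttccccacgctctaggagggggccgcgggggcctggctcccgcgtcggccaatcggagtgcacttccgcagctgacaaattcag
Fos, chr12:85473770-85473889, plus strand: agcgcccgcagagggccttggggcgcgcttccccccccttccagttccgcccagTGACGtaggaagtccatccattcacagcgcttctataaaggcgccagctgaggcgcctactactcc
Fosb, chr7:19310046-19310165, minus strand: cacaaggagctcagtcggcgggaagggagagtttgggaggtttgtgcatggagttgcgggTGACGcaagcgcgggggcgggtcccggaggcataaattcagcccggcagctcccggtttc
Atf3, chr1:191183334-191183453, minus strand: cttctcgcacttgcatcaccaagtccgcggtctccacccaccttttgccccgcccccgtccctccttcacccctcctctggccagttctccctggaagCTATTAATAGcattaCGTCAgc

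Windows of 300 bases, which reach from 250 bases before the start site to 50 after it, were at hand for 8 of the 10 genes, those other than Egr1 and Ier2. TGACG on either strand occurred in 4 of these 8 windows (Junb, Fos, Fosb and Atf3). It occurred in 20.8% of all 32851 windows, which are the RefSeq start-site windows of this length. The MEF2 box was present in 2 of 8, Jun and Atf3, against 0.56% of all windows. In Jun it began 33 bases and in Atf3 22 bases before the start site. GCGNGGGCG, the element bound by EGR factors, was found in the windows of Fosb and Fosl2, and in 5.55% of all windows. None of the 8 held the full cAMP response element TGACGTCA (1.79% of all windows, each of which also counts under TGACG), the AP-1 element TGANTCA (7.81%) or a CArG box, the binding element of SRF (1.63%). These matches are descriptions of the letters in these windows, and binding was not measured here. Only exact matches were counted, so that tgacatca in the Jun stretch above, a near match to TGACGTCA, was not. Sequence outside these windows was not searched, so elements farther from the start sites are not covered.

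Values are log2 expression values on which a difference of 1 is a 2-fold change, and levels of different genes were not set against each other because each probe set has its own affinity. A gene was called where its difference passed an adjusted p of 0.05 in limma and was at least 1.3-fold, which is 0.38 on the log2 scale. Of all genes, the 9969 with the larger spread over the 12 arrays were tested, and all 10 AP-1 and immediate early genes were among them. Over all genes, the correlation between arrays was 0.9965 or more within a group and 0.9891 to 0.9949 across groups. As markers of this line, 12 of 14 sympathoadrenal and neuronal genes were measured. They averaged 9.69 to 9.80 per array in KD cells after RA, 9.71 to 9.74 in control cells after RA, 10.07 to 10.10 in proliferating KD cells and 9.85 to 9.90 in proliferating control cells. The filter left 11 of the 12 to be tested. With RA, 5 were called lower in KD cells (4.57% of all genes tested) and 3 in control cells (3.76%). In KD cells all 12 were below 0, as were 54.9% of all genes. In control cells 4 were above 0, where 49.2% of all genes were below 0. Among these 4 were Phox2a (0.36 ± 0.06, SE) and Isl1 (0.28 ± 0.06) on the log2 scale, both under the fold threshold. With knockdown in proliferating cells 5 were called higher (3.96% of all genes tested). In that comparison 3 were below 0 (53.7% of all genes), among them Gata2 (−0.21 ± 0.05). After RA, knockdown had 1 called higher (Dbh) and 1 lower (Phox2a), where 4% of all genes tested were called lower. The part of these genes in the results below was not tested. In the glial (6 of 7 measured, 3 tested) and fibroblast (7 of 7 measured, 5 tested) lists, no gene was called in any comparison. Of the immune and endothelial list (7 of 7 measured, 4 tested) only Pecam1, an endothelial adhesion gene, was called, lower after RA in each line. Of 6 measured RA response genes, 1 was called higher and 1 lower after RA in each line. Cyp26b1, an RA-degrading enzyme induced by RA, rose by 1.11 ± 0.10 in KD cells and by 1.64 ± 0.10 in control cells, and Stra6, a retinol transporter gene, fell by 0.41 ± 0.07 in KD cells and by 0.61 ± 0.07 in control cells. The other 4 (Cyp26a1, Rarb, Dhrs3 and Crabp2) were not called. With knockdown, Stra6 was called higher in both states, and Cyp26b1 was called lower after RA (−0.70 ± 0.10). The part of these knockdown differences in the RA responses below was not tested. In bulk RNA, fewer cells that express a gene and less RNA per cell cannot be told apart.

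All 10 genes had a lower mean after RA than in proliferating cells, in KD cells and in control cells alike, as did 54.9% of all genes in KD cells and 49.2% in control cells. In KD cells 5 of the 10 were called, each lower (Jun, Junb, Jund, Atf3 and Egr1), where 4.57% of all genes tested were called lower. In control cells 2 of the 10 were called, both lower (Egr1 and Ier3), against 3.76% of all genes tested. The 10 genes were chosen with earlier results of these data known, so these comparisons with all genes are not tests of the set. The median RA response of the 10 genes was −0.42 in KD cells and −0.20 in control cells on the log2 scale, while the median over all genes was −0.01 in KD cells and 0.00 in control cells. The response itself differed between KD and control cells for Jun and Jund, whose changes were the more negative in KD cells. Knockdown went with higher Junb and Ier2 and lower Ier3 in proliferating cells, and with lower Jun, Fosl2 and Atf3 after RA.

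**Figure D1:**
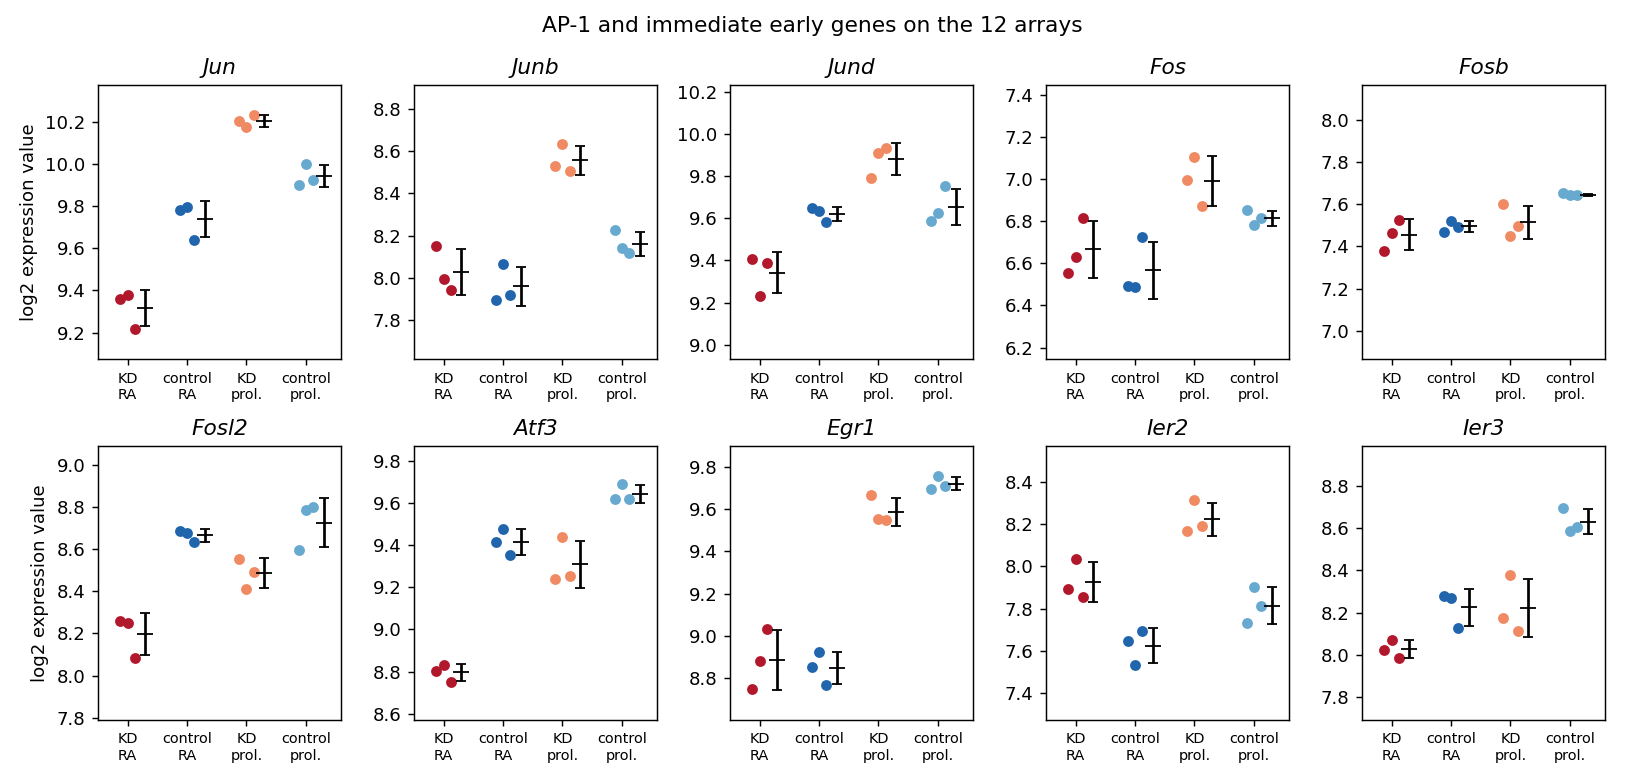
Log2 expression value of each of the 10 genes (vertical axis, each panel spanning 1.3 log2 units) on the 3 arrays of each group (points), with the group mean and SD beside them (black). Groups run from KD after RA, control after RA and KD proliferating to control proliferating. The Jun arrays form 4 separate groups, from 9.22 to 9.38 in KD cells after RA up to 10.18 to 10.23 in proliferating KD cells.

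Jun, the main activating partner of AP-1 and a target of the kinase JNK, showed the widest span of group means among the 10 genes, 0.89 on the log2 scale. In KD cells it had 9.36, 9.38 and 9.22 after RA, against 10.20, 10.18 and 10.23 in proliferating cells. In control cells it had 9.78, 9.80 and 9.64 after RA, against 9.90, 10.00 and 9.92 in proliferating cells. The 4 groups did not overlap, and the order from high to low was proliferating KD, proliferating control, control after RA and KD after RA. With RA, Jun fell by 0.89 ± 0.06 on the log2 scale in KD cells (SE, 0.541-fold, adjusted p = 5.1e-07), and its change in control cells was −0.20 ± 0.06 (adjusted p = 0.019), under the fold threshold. The difference between the 2 responses was −0.68 ± 0.08 (95% interval −0.86 to −0.50, adjusted p = 0.0038). Such a difference in response was called lower for 0.752% of all genes tested. Between KD and control cells the sign of the Jun difference changed with state: −0.42 ± 0.06 after RA (adjusted p = 0.00022, called) and 0.26 ± 0.06 in proliferating cells (adjusted p = 0.0046, under the fold threshold). Without KD array 3 of the RA group, the lowest of the 12, the value after RA was −0.37 and no longer reached 1.3-fold.

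Jund, the Jun protein that is least dependent on stimulation, followed the same order as Jun. Its values in KD cells were 9.41, 9.23 and 9.39 after RA, against 9.79, 9.91 and 9.93 in proliferating cells. Those of control cells were 9.65, 9.63 and 9.58 after RA, against 9.59, 9.62 and 9.75 in proliferating cells. KD cells after RA lay below every other array and proliferating KD cells above them, whereas the 2 control groups overlapped. In KD cells Jund fell by 0.54 ± 0.06 on the log2 scale (adjusted p = 4.6e-05), while the change in control cells was −0.03 ± 0.06 (adjusted p = 0.76, 95% interval −0.17 to 0.11). The responses differed by −0.51 ± 0.09 (adjusted p = 0.021). That call was lost when 1 of 5 arrays was left out: KD proliferating array 2 (−0.49, adjusted p = 0.061) or 3 (−0.48, 0.060), control proliferating array 1 (−0.47, 0.054) or 2 (−0.49, 0.055), or control RA array 3 (−0.52, 0.051). Between KD and control cells Jund differed by −0.28 ± 0.06 after RA (adjusted p = 0.0047) and by 0.23 ± 0.06 in proliferating cells (adjusted p = 0.016), both under the fold threshold.

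Junb, a Jun protein that often restrains Jun, had 8.15, 7.996 and 7.94 in KD cells after RA, against 8.53, 8.64 and 8.51 in proliferating KD cells. Control cells had 7.89, 8.07 and 7.92 after RA, against 8.22, 8.14 and 8.12 in proliferating cells. Only the proliferating KD arrays stood clear of all others, since KD cells after RA overlapped with both control groups. RA went with a fall of Junb by 0.53 ± 0.07 on the log2 scale in KD cells (adjusted p = 8.6e-05) and with a change of −0.20 ± 0.07 in control cells (adjusted p = 0.037, under the fold threshold), and the responses differed by −0.33 ± 0.10 (adjusted p = 0.11). In proliferating cells Junb was 1.32-fold higher in KD than in control cells (0.40 ± 0.07, adjusted p = 0.00090), and after RA the difference was 0.07 ± 0.07 (adjusted p = 0.45, 95% interval −0.08 to 0.22). The call in proliferating cells rested on a narrow margin over 1.3-fold: the value was 0.36 without KD array 2, 0.38 without control array 3, just under the threshold, and 0.37 after a further quantile normalisation.

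**Figure D2:**
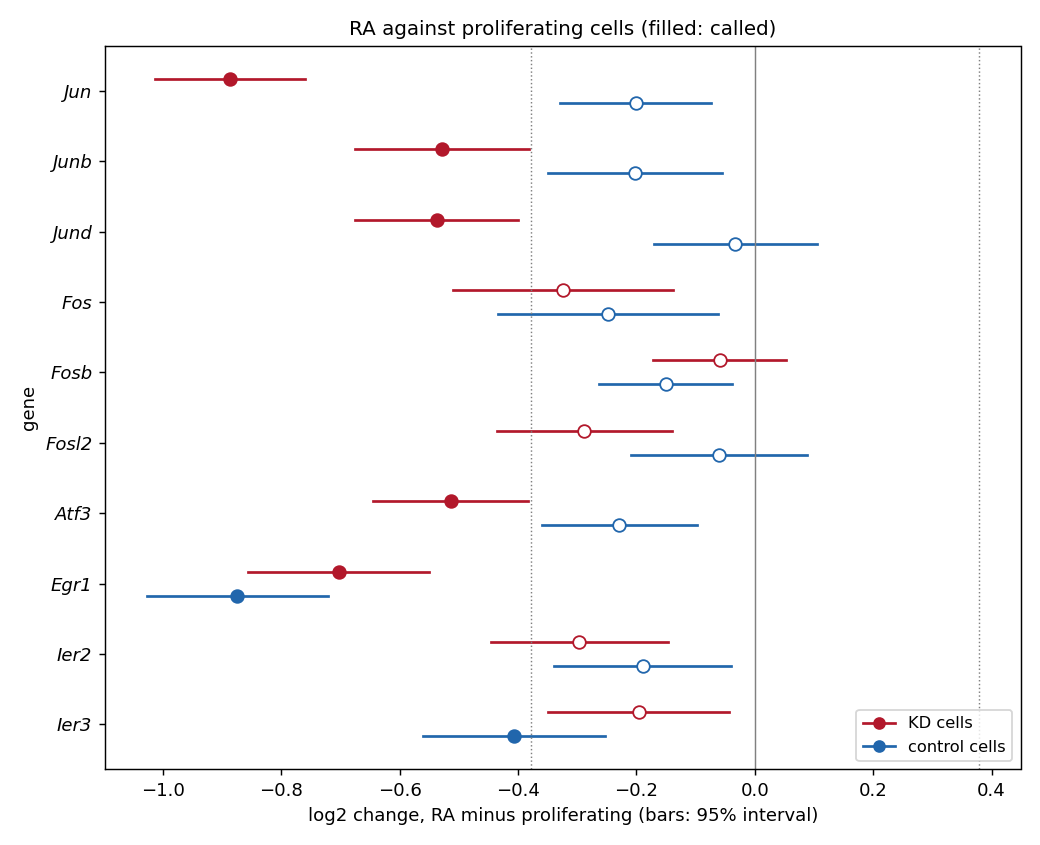
Log2 change after RA against proliferating cells (horizontal axis) of each gene in KD cells (red, upper) and control cells (blue, lower), with 95% intervals from limma; filled points were called and dotted lines mark 1.3-fold. Every point lies left of 0, Jun at −0.89 in KD cells and −0.20 in control cells, and Egr1 at −0.70 in KD cells and −0.87 in control cells.

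Of the Fos genes, whose proteins bind DNA with a Jun partner, Fosl2 was called in 1 comparison, and Fos and Fosb in none. Fos had 6.55, 6.63 and 6.82 in KD cells after RA, against 6.99, 7.11 and 6.87 in proliferating KD cells. Its values in control cells were 6.49, 6.49 and 6.72 after RA, against 6.85, 6.78 and 6.81 in proliferating cells. Every Fos value lay below the median value of each array. Whether this low signal made the measured Fos changes smaller was not tested. RA arrays lay below the proliferating arrays within each line, with control RA array 3 and KD RA array 3 the highest of their groups. The change was −0.32 ± 0.08 in KD cells (adjusted p = 0.010) and −0.25 ± 0.08 in control cells (adjusted p = 0.042), both under the fold threshold. In KD cells it passed 1.3-fold without KD RA array 3 (−0.40) or KD proliferating array 3 (−0.38). Between KD and control cells Fos differed by 0.10 ± 0.08 after RA (adjusted p = 0.40) and by 0.18 ± 0.08 in proliferating cells (adjusted p = 0.13).

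Fosb was the flattest of the 10 genes, with a span of 0.19 between group means. It had 7.38, 7.46 and 7.52 in KD cells after RA, 7.47, 7.52 and 7.49 in control cells after RA, 7.60, 7.45 and 7.50 in proliferating KD cells, and 7.65, 7.64 and 7.64 in proliferating control cells. The proliferating control arrays lay above all others, and the other 3 groups overlapped. No comparison of Fosb was called, and the adjusted p was 0.042 for RA in control cells (−0.15 ± 0.05) and 0.071 for knockdown in proliferating cells (−0.13 ± 0.05).

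Fosl2 encodes the Fos-related protein Fra-2. KD cells after RA had 8.26, 8.25 and 8.08, against 8.68, 8.68 and 8.63 in control cells after RA. Proliferating KD cells had 8.55, 8.41 and 8.49, against 8.59, 8.79 and 8.80 in proliferating control cells. All KD arrays lay below all control arrays, and the 2 control groups overlapped. Knockdown went with a fall of Fosl2 by 0.47 ± 0.07 on the log2 scale after RA (0.723-fold, adjusted p = 0.00031), and the difference in proliferating cells was −0.24 ± 0.07 (adjusted p = 0.016, under the fold threshold). The RA change was −0.29 ± 0.07 in KD cells (adjusted p = 0.0055) and −0.06 ± 0.07 in control cells (adjusted p = 0.56). The knockdown differences after RA and in proliferating cells themselves differed by −0.23 ± 0.10 (adjusted p = 0.25), so Fosl2 is not shown to respond to knockdown more in one state than in the other.

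Atf3, a stress-induced ATF protein that represses as a homodimer, had the largest knockdown difference of the 10 genes. Its values were 8.80, 8.83 and 8.75 in KD cells after RA, against 9.41, 9.48 and 9.35 in control cells after RA. Proliferating KD cells had 9.24, 9.44 and 9.25, against 9.62, 9.69 and 9.62 in proliferating control cells. KD cells after RA lay well below every other array, proliferating control cells lay above all others, and control cells after RA overlapped with proliferating KD cells. After RA, Atf3 fell by 0.62 ± 0.06 on the log2 scale in KD against control cells (0.651-fold, adjusted p = 2.3e-05). In proliferating cells the difference was −0.33 ± 0.06 (adjusted p = 0.0013), under the fold threshold, and passed it without KD proliferating array 2 (−0.40). RA went with a fall of Atf3 by 0.51 ± 0.06 in KD cells (adjusted p = 4.1e-05) and with a change of −0.23 ± 0.06 in control cells (adjusted p = 0.011, under the fold threshold). The 2 responses differed by −0.29 ± 0.08 (adjusted p = 0.11).

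Egr1 was called for RA in both lines and for knockdown in neither state. KD cells had 8.75, 8.88 and 9.03 after RA, against 9.67, 9.55 and 9.55 in proliferating cells. Control cells had 8.85, 8.92 and 8.77 after RA, against 9.70, 9.76 and 9.71 in proliferating cells. The RA arrays of both lines overlapped and lay well below the proliferating arrays, among which the KD arrays were the lower. It fell by 0.70 ± 0.07 on the log2 scale in KD cells (0.614-fold, adjusted p = 1.3e-05) and by 0.87 ± 0.07 in control cells (0.545-fold, adjusted p = 2.2e-06), and the difference of the responses was 0.17 ± 0.10 (95% interval −0.04 to 0.39, adjusted p = 0.40). KD and control cells differed by 0.04 ± 0.07 after RA (adjusted p = 0.72, 95% interval −0.12 to 0.19) and by −0.13 ± 0.07 in proliferating cells (adjusted p = 0.17). Leaving out KD RA array 3 or control RA array 3 turned the sign of the value after RA (−0.04 and −0.0022).

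Ier2 was called for knockdown in proliferating cells. It had 7.89, 8.04 and 7.86 in KD cells after RA, against 7.65, 7.53 and 7.70 in control cells after RA. Proliferating KD cells had 8.17, 8.31 and 8.19, against 7.73, 7.90 and 7.81 in proliferating control cells. KD and control arrays did not overlap in either state, although KD cells after RA overlapped with proliferating control cells. Ier2 was 1.33-fold higher in KD than in control cells when proliferating (0.41 ± 0.07, adjusted p = 0.00080), and the difference after RA was 0.30 ± 0.07 (adjusted p = 0.0045), under the fold threshold. The 2 differences themselves differed by −0.11 ± 0.10 (adjusted p = 0.63). Without KD proliferating array 2 or control proliferating array 1 the value in proliferating cells was 0.37 and no longer reached 1.3-fold. The RA change was −0.30 ± 0.07 in KD cells (adjusted p = 0.0049) and −0.19 ± 0.07 in control cells (adjusted p = 0.052).

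Ier3 was the third gene called for knockdown in proliferating cells, in the opposite direction to Ier2. KD cells had 8.02, 8.07 and 7.98 after RA, against 8.18, 8.38 and 8.11 in proliferating cells. Control cells had 8.28, 8.27 and 8.12 after RA, against 8.70, 8.59 and 8.61 in proliferating cells. The proliferating control arrays lay above all others and KD cells after RA below them, and the 2 groups in between overlapped. In proliferating cells Ier3 fell by 0.41 ± 0.07 on the log2 scale in KD against control cells (0.754-fold, adjusted p = 0.00098), and the difference after RA was −0.20 ± 0.07 (adjusted p = 0.043). RA went with a fall of Ier3 by 0.41 ± 0.07 in control cells (adjusted p = 0.00084) and with a change of −0.20 ± 0.07 in KD cells (adjusted p = 0.046). The difference of the responses was 0.21 ± 0.10 (adjusted p = 0.30). The knockdown call ended without KD proliferating array 3 (−0.35) or control proliferating array 1 (−0.37), and the RA call in control cells ended without control proliferating array 1 (−0.37) or control RA array 3 (−0.36).

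Across the 10 genes, the knockdown differences ran in both directions. After RA, 3 genes were called, all lower (Jun, Fosl2 and Atf3), where 4% of all genes tested were called lower. In proliferating cells 2 were called higher (Junb and Ier2) and 1 lower (Ier3), where 3.96% of all genes tested were called higher and 3% lower. The KD arrays of all 10 genes were separate from the control arrays in proliferating cells, 5 above and 5 below, but such separation was found for 50.3% of all genes tested in that comparison. After RA it was found for 6 of the 10, against 44.5% of all genes tested. For RA, arrays after RA lay entirely below proliferating arrays for 9 of the 10 genes in KD cells, against 26.9% of all genes tested, and for 8 of the 10 in control cells, against 23.7%. The knockdown and RA comparisons share arrays: each group of 3 arrays enters 1 knockdown and 1 RA comparison, so that the lower Jun and Atf3 of KD cells after RA enter both the RA comparison in KD cells and the knockdown comparison after RA. Averaged over the 10 genes after centring each on its mean, the arrays ran from −0.26 to −0.24 in KD cells after RA and from −0.12 to −0.07 in control cells after RA. The same average was 0.15 to 0.22 in proliferating KD cells and 0.14 to 0.18 in proliferating control cells. In this average the groups of the 2 lines overlapped when proliferating and not after RA. The proliferating average takes in 5 genes that were higher and 5 that were lower in KD cells, so it does not show that the lines were alike. Array 3 was the lowest of its group for 6 of the 10 genes in KD cells after RA, and also for 6 of 10 in control cells after RA.

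**Figure D3:**
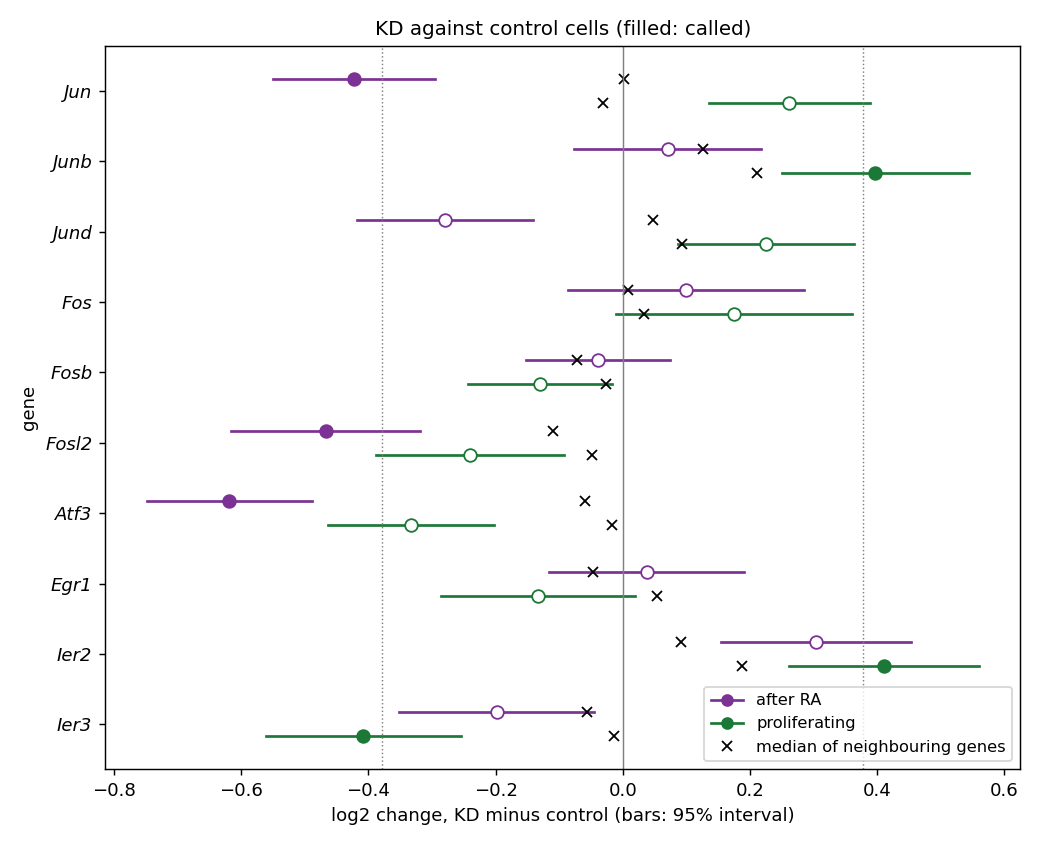
Log2 difference between KD and control cells (horizontal axis) of each gene after RA (purple, upper) and in proliferating cells (green, lower), with 95% intervals from limma; filled points were called, dotted lines mark 1.3-fold, and crosses are the median difference of the genes that neighbour each one on its chromosome. Atf3 after RA lies farthest out at −0.62, while the neighbours of Junb and Ier2 in proliferating cells lie at 0.21 and 0.19.

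Since KD and control cells are separate stable lines, each gene was set beside its neighbours on its chromosome. These were up to 25 expressed protein-coding genes (those above the median level) on each side. Junb and Ier2 lie on chromosome 8 with 16 other measured protein-coding genes between them, so their neighbours are largely the same genes. The neighbours of Junb had a median knockdown difference of 0.13 after RA and 0.21 in proliferating cells on the log2 scale, with 44 and 40 of 49 above the median of all such genes (−0.02 after RA and 0.02 in proliferating cells). For Ier2 the neighbours' medians were 0.09 after RA and 0.19 in proliferating cells, with 42 and 39 of 49 above it. Jund, elsewhere on chromosome 8, had neighbours at 0.05 and 0.09, with 36 of 50 above it in each state. The part of this regional shift in the higher Junb and Ier2 of proliferating KD cells was not tested. Set against the median of its neighbours, Junb lay at −0.06 after RA and 0.19 in proliferating cells, and Ier2 at 0.21 after RA and 0.22 in proliferating cells. Fosl2 had neighbours at −0.11 after RA and −0.05 in proliferating cells, with 13 and 12 of 50 above the median of all such genes, against its own −0.47 and −0.24. The neighbours of Jun were at 0.00 after RA and −0.03 in proliferating cells, with 27 and 20 of 50 above the median of all such genes. Those of Atf3 were at −0.06 and −0.02, with 15 and 19 of 41 above it. Those of Ier3 were at −0.06 and −0.01, with 21 and 20 of 50 above it.

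The rest of the pathway was read from 5 lists, in which signs are counted over the measured genes and calls over those that passed the filter. Of the 16 measured genes of other AP-1 and leucine zipper partners, 13 were below 0 after RA in KD cells and 6 in control cells, where 54.9% and 49.2% of all genes were. Of the 8 tested, 1 was called for RA in KD cells (4.57% of all genes tested were called lower) and 0 in control cells (3.76%). Crem, a cAMP-responsive factor, fell by 0.51 ± 0.06 on the log2 scale in KD cells, and its change in control cells was −0.36 ± 0.06 (adjusted p = 0.00041). In the knockdown comparison after RA, Maff, a small MAF protein, fell by 0.40 ± 0.05. No gene of this list was called for knockdown in proliferating cells. Among 15 other immediate early transcription factors, of which 9 were tested, 2 were called for RA in KD cells (4.57% of all genes tested were called lower). Klf6 fell by 0.81 ± 0.05 and Klf10, a TGF-beta-induced factor, by 0.68 ± 0.04. In control cells none of the 9 was called in limma, but Klf10 (−0.38 ± 0.04, adjusted p = 2.3e-05), Nr4a1 (−0.38 ± 0.05, adjusted p = 5.4e-05) and Klf6 (−0.33 ± 0.05, adjusted p = 0.00052) were under the fold threshold alone, the first 2 barely. Nr4a1, an orphan nuclear receptor gene named for its closeness to the threshold, changed by −0.23 ± 0.05 in KD cells. After RA 14 of the 15 were below 0 in KD cells and 8 in control cells, against 54.9% and 49.2% of all genes. Klf6 was also lower in KD than in control cells after RA, where it fell by 0.39 ± 0.05, and its RA responses differed by −0.48 ± 0.08 (adjusted p = 0.015). Those of Klf10 differed by −0.31 ± 0.06 (adjusted p = 0.026, under the fold threshold).

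Of 21 immediate early effectors, 13 were tested, and 4 of these were called lower after RA in KD cells (4.57% of all genes tested) and 3 in control cells (3.76%). Below 0 were 16 of the 21 in KD cells and 11 in control cells, against 54.9% and 49.2% of all genes. Nfkbia, which holds NF-κB in the cytoplasm, fell by 0.88 ± 0.06 on the log2 scale in KD cells and by 0.44 ± 0.06 in control cells, and the responses differed by −0.44 ± 0.09 (adjusted p = 0.036). Btg2, an antiproliferative gene, fell by 0.58 ± 0.06 in KD cells and by 0.40 ± 0.06 in control cells, and the growth arrest gene Gadd45b fell by 0.44 ± 0.08 in KD cells and by 0.46 ± 0.08 in control cells. Tnfaip3, an inhibitor of NF-κB signalling, fell by 0.44 ± 0.07 in KD cells, and its change in control cells was −0.29 ± 0.07 (adjusted p = 0.0087). Knockdown in proliferating cells went with 2 effectors called higher, Nfkbia (0.65 ± 0.06) and the synaptic scaffold gene Homer1 (0.42 ± 0.04). In that comparison 3.96% of all genes tested were called higher. Of the 21, 14 were below 0, as were 53.7% of all genes.

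Of the genes that feed into these promoters (SRF and its partners and the ERK and JNK kinases, 17 of 23 measured and 7 tested), Mapk10, the neuronal JNK3, was called lower after RA, where it fell by 0.68 ± 0.05 in KD cells and by 0.63 ± 0.05 in control cells. In these comparisons 4.57% and 3.76% of all genes tested were called lower. Mapk10 also fell by 0.40 ± 0.05 in KD against control cells after RA, as did the SRF coactivator gene Mrtfa by 0.39 ± 0.05. There 4% of all genes tested were called lower. Measured targets of AP-1 and EGR1 numbered 23, of which 14 were tested. Among them RA in control cells went with a fall of the neuropeptide precursor gene Vgf by 0.45 ± 0.05 (3.76% of all genes tested were called lower). It also went with a rise of cyclin D1 (Ccnd1) of 0.45 ± 0.05. In control cells 17 of the 23 were below 0, against 49.2% of all genes, with a median of −0.17. In KD cells the median was −0.05 and 1 target was called (4.57% of all genes tested were called lower). This was the lamin gene Lmna, which fell by 0.43 ± 0.05. In proliferating cells the tissue factor gene F3 and Vgf were lower in KD cells, where they fell by 0.50 ± 0.07 and 0.43 ± 0.05. In that comparison 3% of all genes tested were called lower. No target was called for knockdown after RA.

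**Figure D4:**
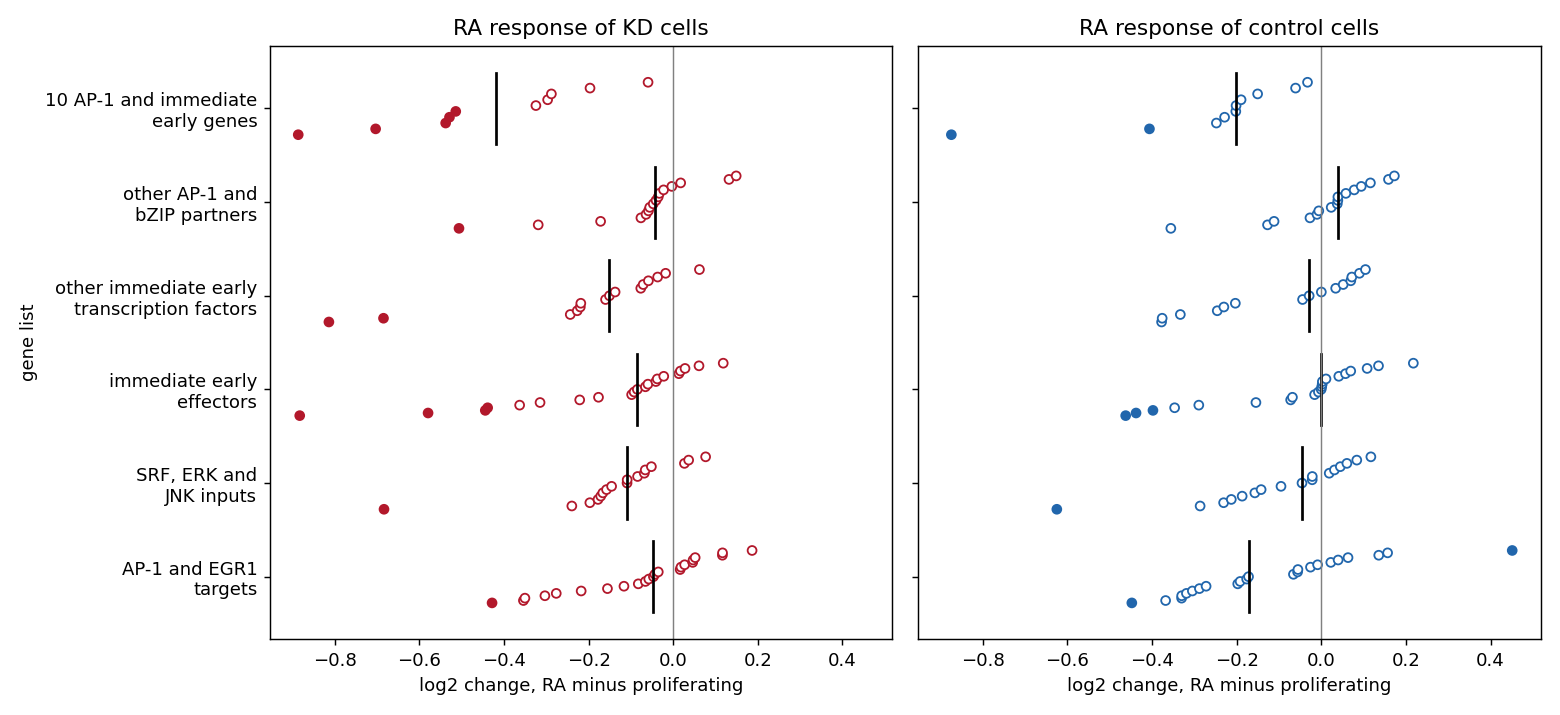
Log2 change after RA against proliferating cells (horizontal axis) of every measured gene in the 10-gene set and in 5 other lists of the pathway, in KD cells (left) and control cells (right); filled points were called and black lines are list medians. The 10 genes have medians of −0.42 in KD cells and −0.20 in control cells, and the medians of the 5 other lists run from −0.15 to −0.04 in KD cells and from −0.17 to 0.04 in control cells.

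The genes with the most similar pattern were found for the 8 genes whose group means spanned at least 0.5, as the root mean square difference of centred log2 values over the 12 arrays. Jun was nearest to Lpin1, a phosphatidate phosphatase gene (0.090), and to the immediate early gene Klf6 (0.092). Their RA changes were −0.72 ± 0.04 and −0.81 ± 0.05 in KD cells, and −0.27 ± 0.04 and −0.33 ± 0.05 in control cells. Since these genes were chosen for their likeness over all 12 arrays, values close to those of the gene they were matched to follow from the choice. Jund was nearest to Dusp8, a phosphatase that acts on JNK and p38 kinases (0.066), whose RA change was −0.57 ± 0.04 in KD cells and 0.01 ± 0.04 in control cells. Aimp2 came next to Jund (0.078). Atf3 was nearest to the receptor phosphatase gene Ptprs (0.060) and to the growth factor gene Tgfb3 (0.064). Their knockdown differences were −0.54 ± 0.04 and −0.59 ± 0.07 after RA, and −0.29 ± 0.04 and −0.42 ± 0.07 in proliferating cells. Egr1 was nearest to Gata2, a zinc finger factor of sympathoadrenal cells (0.079), and to Ahnak (0.087). Their RA changes were −0.67 ± 0.05 and −0.80 ± 0.06 in KD cells, and −0.85 ± 0.05 and −0.93 ± 0.06 in control cells. The nearest genes of Junb were Echdc1 (0.066) and Ift81 (0.073), those of Fosl2 Arl2 (0.073) and Cops9 (0.074), those of Ier2 Ggh (0.067) and Pex7 (0.070), and those of Ier3 Nav1 (0.065) and Tmem176a (0.071). No member of the 10-gene set was among the 2 nearest genes of another.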

How the data were processed

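The authors background-corrected the 12 arrays with RMA, quantile normalised them and summarised them per gene. Each deposited value is the log2 expression of 1 probe set on 1 array. The submitters' processing notes name limma and RMA. Of 35556 probe sets, 21789 had 1 gene symbol in the platform annotation, 1621 had several and were not used, and 12146 had none. Each of 19938 genes was represented by its probe set of widest interquartile range, and the lower 50% of genes by interquartile range were left out. The study's methods give a variance filter without naming its measure, so this form of it and the choice of probe set were made here. Group means over all 12 arrays were fitted with limma 3.58.1 (R 4.3.3) without a block, with Benjamini-Hochberg adjustment over the 9969 genes tested. The comparisons were KD against control after RA and in proliferating cells, RA against proliferating in each line, and the difference of the RA responses. The fit was tested on simulated data. All 10 genes are named, with up to 4 called genes per pathway list and comparison, largest change first, and the 2 nearest genes by pattern. The 10 genes and the lists were chosen with earlier results of these data known. The number of arrays limits the precision. Alternatives were other filters, fold thresholds, normalisations, fits and left-out arrays.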

Additional observations from a re-analysis of the deposited data

Results flagged for a closer look

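The difference between the RA responses of KD and control cells was itself called for 2 of the 10 genes, both lower, where 0.752% of all genes tested were called lower. This difference was −0.68 on the log2 scale for Jun and −0.51 for Jund, the change with RA being the more negative in KD cells. The Jund call was lost in some fits with 1 array left out (adjusted p up to 0.061 in limma), and the Jun call was kept. Groups of 3 arrays are too small for a test of single outlying arrays.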

How the results depend on the processing

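The number of the 10 genes called, given here without the share of all genes that passed the same setting, depended most on the fold threshold. With the adjusted p alone it was 6 for KD against control after RA, 7 for the same in proliferating cells, 9 for RA in KD cells and 7 for RA in control cells. At 1.5-fold it was 1, 0, 2 and 1 in the same order, and 1 for the difference of the RA responses. With 1 array left out at a time, it ran from 2 to 3 for KD against control after RA, 1 to 3 in proliferating cells, 5 to 6 for RA in KD cells, 1 to 2 for RA in control cells and 1 to 2 for the difference of the responses. A few small values changed sign among these fits. The value of Egr1 for KD against control after RA ran from −0.035 to 0.11, that of Jund for RA in control cells from −0.066 to 0.016, and the difference of the Fos responses from −0.15 to 0.0021. The other settings (no filter or a filter on level, centred arrays, the mean of probe sets, array weights, a trended robust prior, and a fit of only the groups compared, which was not run for the difference of the responses) left the number called at its value. A further quantile normalisation did so except in proliferating cells, where it was 2 for KD against control because Junb fell under 1.3-fold. Fosb, and less often Fos, had no value where the gene fell under the filter in use. Deviations of same-numbered arrays from their group means correlated over 0.1 in 5 of 18 pairs (r from −0.09 to 0.21). Among them were the 3 pairs between array 3 of proliferating control cells and of both RA groups. The labels do not say what a shared number stands for, and a batch or culture shared by same-numbered arrays was not tested. With the replicate number as a block the numbers called stayed 3, 3, 5, 2 and 2, and over all genes they were 773 (after RA) and 696 (proliferating) for knockdown, 990 (KD) and 934 (control) for RA, and 94 for the difference of the responses.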
